A study of Homo sapiens with 4 samples.

Results

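The 10 genes described here encode the main heat shock chaperones of the cytosol with their co-chaperones and their transcription factor: *HSPA1A*, *HSPA1B*, *HSPA8*, *HSPH1*, *DNAJB1*, *HSPB1*, *HSP90AA1*, *HSP90AB1*, *BAG3* and *HSF1*. They were chosen by name, as rows of the deposited tables whose symbol equals one of the 10. All 10 of the 10 names were listed among the 20457 features of the tables, and all 10 were among the 14208 features tested. RNA was sequenced from HEK293 cells, an established line from human embryonic kidney. The siControl group is 2 libraries of wild-type cells given a negative control small interfering RNA (siRNA), and the siCNOT4 group is 2 libraries of cells in which CNOT4 was knocked down by siRNA. Both groups received 10 nM siRNA for 72 h, so untreated cells are not part of the comparison. CNOT4 is a ubiquitin ligase that binds the CCR4-NOT deadenylase complex, and the study asked how it bears on the effect of codon usage on expression.

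Cytosolic chaperones bind unfolded segments of proteins and use ATP to release them for folding. HSP70 proteins work with J proteins, which deliver clients and stimulate ATP hydrolysis, and with nucleotide exchange factors, which let the client go. HSP90 acts later on partly folded clients such as kinases, and small heat shock proteins hold aggregation-prone proteins without using ATP. Under heat or other stress that unfolds proteins, the transcription factor HSF1 forms trimers, binds heat shock elements (inverted repeats of a short GAA unit) and induces many of these genes.

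The promoters of 4 members are shown because 2 of these genes (*HSPA8*, *HSP90AA1*) rose in siCNOT4 and *HSP90AB1* and *HSPA1A* did not pass the test. They were picked after the values had been seen. Each stretch runs 5′ to 3′ on the gene's strand, from 250 bases before to 50 after the annotated start, and comes from RefSeq on GRCh38.p14. The deposited values were made on hg19, and the tables carry no coordinates. Capitals mark matches to 2 adjoining heat shock units in opposite directions (GAANNTTC or TTCNNGAA, each of which reads the same on both strands).
HSPA8, chr11:123062087-123062386, minus strand: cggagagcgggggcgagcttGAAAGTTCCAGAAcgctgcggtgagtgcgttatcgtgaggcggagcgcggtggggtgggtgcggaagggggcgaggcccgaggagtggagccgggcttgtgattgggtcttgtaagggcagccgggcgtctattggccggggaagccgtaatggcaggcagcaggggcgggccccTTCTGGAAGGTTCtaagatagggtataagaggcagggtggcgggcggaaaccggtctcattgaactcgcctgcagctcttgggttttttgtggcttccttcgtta
HSP90AA1, chr14:102086995-102087294, minus strand: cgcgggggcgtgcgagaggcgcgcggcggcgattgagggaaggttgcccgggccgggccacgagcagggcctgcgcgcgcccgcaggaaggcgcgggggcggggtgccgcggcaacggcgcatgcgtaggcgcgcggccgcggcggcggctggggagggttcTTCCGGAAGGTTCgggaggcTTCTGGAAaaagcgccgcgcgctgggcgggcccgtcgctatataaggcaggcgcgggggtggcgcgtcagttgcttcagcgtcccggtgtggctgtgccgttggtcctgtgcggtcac
HSP90AB1, chr6:44247693-44247992, plus strand: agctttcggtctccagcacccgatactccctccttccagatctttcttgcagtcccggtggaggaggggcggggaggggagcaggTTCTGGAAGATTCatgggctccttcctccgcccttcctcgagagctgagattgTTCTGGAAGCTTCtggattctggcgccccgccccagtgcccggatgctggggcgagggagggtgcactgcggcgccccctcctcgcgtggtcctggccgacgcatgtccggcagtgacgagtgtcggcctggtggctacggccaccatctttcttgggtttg
HSPA1A, chr6:31815293-31815592, plus strand: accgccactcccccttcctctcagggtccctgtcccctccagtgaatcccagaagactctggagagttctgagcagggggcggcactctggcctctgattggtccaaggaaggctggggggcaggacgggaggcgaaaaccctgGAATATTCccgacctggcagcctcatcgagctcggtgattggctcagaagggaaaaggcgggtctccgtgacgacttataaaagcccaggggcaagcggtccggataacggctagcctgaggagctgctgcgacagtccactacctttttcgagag

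Across all 35116 promoters of that length, 13.5% held at least one 2-unit match and 0.490% held a 3-unit match (GAANNTTCNNGAA or TTCNNGAANNTTC, which are one motif on the 2 strands and contain 2 overlapping 2-unit matches). Counted by gene, with any of its promoters holding a match, the shares were 16.2% and 0.608% of 27305 genes. The search covered 14 promoters of 9 members, of which 8 held a 2-unit and 3 a 3-unit match. By gene, the 2-unit match was found in 7 of 9 members and the 3-unit match in 3, which were *HSPA8*, *HSP90AA1* and *HSP90AB1*. In *HSPA8* the 3-unit runs GAAAGTTCCAGAA and TTCTGGAAGGTTC began 230 and 55 bases before the start. *HSP90AA1* had TTCCGGAAGGTTC at 88 bases, and *HSP90AB1* had TTCTGGAAGATTC and TTCTGGAAGCTTC at 165 and 112 bases. *HSP90AA1* has 2 annotated promoters and *HSP90AB1* has 3, and the one shown for each is the only one of them with a match. In both genes the other annotated starts lie upstream of the stretch shown, so the distances hold only for the start shown. *HSPA1A* and *HSPA1B* each held GAATATTC, at 106 and 105 bases. *HSPH1* and *BAG3* held no 2-unit match in this window. Members that rose and members that were not called both carried these letters, and a match describes letters only, not binding.

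The libraries were first compared as a whole. TPM is a transcript level divided by gene length that the authors scaled to sum to 1000000 in each library, so the values hold no read totals and the depth behind them is unknown. *CNOT4* had 6.43 and 4.73 TPM in siControl and 3.38 and 3.81 TPM in siCNOT4, a ratio of group means of 0.644 (limma adjusted p 0.184 on log2(TPM + 1)). The 100 features with the highest TPM held 33.1% and 39.8% of the total in siControl replicates 1 and 2. In siCNOT4 replicates 1 and 2 that share was 26.6% and 25.5%. The groups thus differed in this share without overlap, and siControl replicate 2 had the highest value. The median log2 fold change of all tested genes was 0.50, and 81.2% of genes had a positive value, so each member's fold change is also given relative to that median. Of the HEK293 markers, 5 of 6 had a mean of at least 1 TPM (*VIM*, *KRT8*, *KRT18*, *NEFL*, *LIN28B*). All 6 summed to 1571 to 1854 TPM in siControl and 1337 to 1339 TPM in siCNOT4, but they did not move together. *VIM* went from 917 and 650 TPM to 369 and 354 TPM, and *NEFL* from 384 and 346 TPM to 336 and 307 TPM. *KRT18* went from 197 and 193 TPM to 246 and 264 TPM, *LIN28B* and *NEFM* were also higher, and *KRT8* overlapped. Fibroblast markers summed to 1.13 to 1.62 TPM in siControl and 9.08 to 9.49 TPM in siCNOT4, with 2 of 4 (*COL1A1* and *LUM*) at a mean of at least 1 TPM and *COL1A2* at 0 to 0.0152 TPM. Kidney tubule markers (5 of 6 listed) summed to 2.80 to 5.46 TPM and 6.08 to 6.16 TPM, leukocyte markers to 0.122 to 0.135 TPM and 0.151 to 0.561 TPM, and endothelial markers to 0.0537 to 0.0612 TPM and 0.258 to 0.334 TPM. The part of these markers in the results below was not tested, and in bulk RNA fewer cells of a type and less RNA per cell cannot be told apart. Titles number the libraries but do not say whether they are separate cultures, so p values measure only the spread between these libraries.

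In siCNOT4 the mRNAs of the constitutive HSP70 *HSPA8* and the inducible HSP90 isoform *HSP90AA1* rose, and that of the small heat shock protein *HSPB1* fell. The other 7 genes did not pass the test, namely *HSPA1A*, *HSPA1B*, *HSPH1*, *DNAJB1*, *HSP90AB1*, *BAG3* and *HSF1*. Thus 3 of 10 members were called at a limma adjusted p under 0.05 (2 higher, 1 lower). Over all tested genes 12.6% were called, 11.3% higher and 1.30% lower. The groups did not overlap in 9 of 10 members (6 higher, 3 lower), against 77.1% of all tested genes. Members' fold changes had a median of 0.15, which is -0.35 relative to the median of all genes, and 3 of 10 lay above it. That relative median was -0.51 without siControl replicate 1, -0.19 without siControl replicate 2 and -0.090 with length and GC trends removed. With TMM scaling (trimmed mean of M values), which moves the median of all genes to 0.0074, 2 of 10 members were called (8.76% of all genes), namely *HSPB1* and *HSF1*, both lower. Quantile normalization called 4 members (15.3% of all genes), and removal of each library's trend with transcript length and GC content called 2 (23.4% of 13073 genes). Over all genes the calls divided into 4.43% higher and 4.33% lower with TMM scaling, and into 11.8% higher and 11.6% lower with trends removed.

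**Figure D1:**
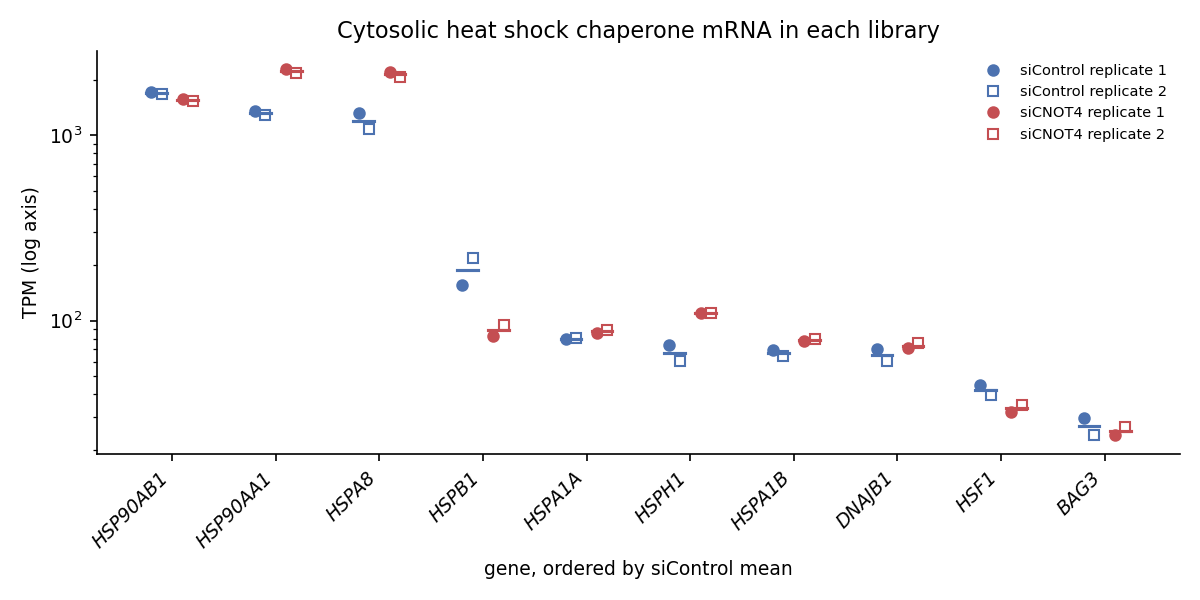
Level of each gene in TPM (log axis) in the 4 libraries: blue, siControl; red, siCNOT4; filled circles, replicate 1; open squares, replicate 2; lines, group means. *HSPA8* and *HSP90AA1* lay at 1085 to 1361 TPM in siControl and 2078 to 2282 TPM in siCNOT4, and *HSP90AB1* at 1538 to 1722 TPM in all 4 libraries.

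The calls changed when 1 library was left out, while the fold changes of the 3 called genes kept their sign. Leaving out a library assumes that the single one left in its group varies like the other group. Over all tested genes the log2 difference between replicates had an SD of 0.48 in siControl and 0.20 in siCNOT4. Fits without a siCNOT4 library thus took their spread from the siControl pair, and fits without a siControl library from the siCNOT4 pair. Without siCNOT4 replicate 1, 0 of 10 members were called (3.35% of all genes), with limma adjusted p values of 0.184 for *HSPA8*, 0.258 for *HSP90AA1* and 0.171 for *HSPB1*. Without siCNOT4 replicate 2, 0 of 10 were called (3.17% of all genes), with 0.125, 0.201 and 0.0771 for the same genes. In these fits, without siCNOT4 replicate 1 and without replicate 2, the log2 fold changes were 0.80 and 0.88 for *HSPA8*. They were 0.72 and 0.79 for *HSP90AA1*, and -0.96 and -1.14 for *HSPB1*. Without siControl replicate 1, 6 members were called, in a fit that called 79.6% of all genes, and without siControl replicate 2, 5 were, in a fit that called 57.5%. Over the 4 fits, *HSPA8* ranged from 0.70 to 0.98, *HSP90AA1* from 0.71 to 0.79 and *HSPB1* from -1.28 to -0.81.

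The levels spanned a wide range. In siControl the order by mean was *HSP90AB1*, *HSP90AA1*, *HSPA8*, *HSPB1*, *HSPA1A*, *HSPH1*, *HSPA1B*, *DNAJB1*, *HSF1* and *BAG3*. The neighbours *HSP90AA1* and *HSPA8*, *HSPH1* and *HSPA1B*, and *HSPA1B* and *DNAJB1* overlapped in that group. In siCNOT4 *HSP90AA1* came first, followed by *HSPA8*, which it overlapped, with *HSP90AB1* after both. *HSPH1* stood ahead of *HSPB1* and *HSPA1A*, which overlapped each other. The 10 genes together made up 0.493% and 0.459% of all TPM in siControl and 0.654% and 0.630% in siCNOT4. *HSPA8*, *HSP90AA1* and *HSP90AB1* carried 88.7% ± 0.896 of that sum in siControl and 92.3% ± 0.498 in siCNOT4 (SD, n = 2).

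*HSPA8* (chromosome 11) encodes HSC70, the HSP70 that cells make without stress and that also uncoats clathrin vesicles. Its level was 1320 and 1085 TPM in siControl and 2211 and 2078 TPM in siCNOT4. Both siCNOT4 libraries lay far above both siControl libraries, and the gap exceeded the difference between replicates. The ratio of means was 1.78, and the log2 fold change was 0.84 (SE 0.14, 95% interval 0.50 to 1.18, limma adjusted p 0.0284), or 0.34 relative to all genes. It remained positive but lost the call with TMM scaling (0.29, adjusted p 0.481), centring on the median (0.28, 0.593) and removal of the length and GC trend (0.49, 0.0635), while quantile normalization gave 1.16 (0.0274). By rank within a library, *HSPA8* stood at the percentiles 99.4 and 99.1 of tested genes in siControl and 99.7 in both siCNOT4 libraries. The small nucleolar RNAs SNORD14C and SNORD14D overlap its exons on the same strand in GENCODE 29, and neither is listed in the tables.

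*HSPA1A* and *HSPA1B* are neighbouring stress-inducible HSP70 genes on chromosome 6. Their coding sequences of 1923 bases differ at 4 positions (99.8% identity), so the division of reads between them is uncertain, and how the authors treated reads that fit both is not given in the sources used here. *HSPA1A* had 79.1 and 80.3 TPM in siControl and 86.1 and 88.7 TPM in siCNOT4. *HSPA1B* had 69.1 and 64.4 TPM against 77.3 and 79.3 TPM. In both genes the siCNOT4 libraries lay slightly above the siControl libraries without overlap. The log2 fold changes were 0.13 (95% interval -0.26 to 0.52, limma adjusted p 0.540) and 0.23 (-0.18 to 0.64, 0.317), which are -0.37 and -0.27 relative to all genes, and both turned negative under TMM scaling, quantile normalization, median centring and trend removal. Summed as 1 feature the pair had 148 and 145 TPM in siControl and 163 and 168 TPM in siCNOT4. *HSPA1B* passed the threshold without siControl replicate 1 (0.28, adjusted p 0.0170), in the fit that called 79.6% of all genes. *HSPA8* and *HSPA1A* share 74.1% of coding bases.

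*HSPH1* (chromosome 13) encodes HSP110, a large relative of HSP70 that serves as its nucleotide exchange factor. It had 74.1 and 60.2 TPM in siControl and 110.1 and 110.0 TPM in siCNOT4. The siCNOT4 libraries agreed closely and both exceeded the siControl libraries, which differed more from each other. The ratio of means was 1.64, with a log2 fold change of 0.71 (SE 0.18, 95% interval 0.27 to 1.15) and a limma adjusted p of 0.0517, just outside the threshold; relative to all genes it was 0.21. Leaving out siControl replicate 1 or 2 gave 0.86 or 0.56, and leaving out siCNOT4 replicate 1 or 2 gave 0.71 each time. The limma adjusted p stayed above the threshold with TMM scaling (0.17, adjusted p 0.444), median centring (0.15, 0.587) and quantile normalization (0.41, 0.0688). Removal of the length and GC trend gave -0.07 (adjusted p 0.751). Its longest GENCODE 29 transcript, at 5191 nt and 40.0% GC, is the longest and the lowest in GC of the 10, against medians of 3586 nt and 48.3% over tested genes.

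*BAG3* (chromosome 10) encodes the other exchange factor among the 10, a scaffold that links HSP70 to small heat shock proteins and to autophagy, and an HSF1 target. Its level was 29.8 and 24.0 TPM in siControl and 24.0 and 26.8 TPM in siCNOT4, the lowest of the 10 in both groups. It was the only member whose groups overlapped. The log2 fold change was -0.08 (95% interval -0.65 to 0.50, limma adjusted p 0.817), or -0.58 relative to all genes, and it was -0.60 with TMM scaling (adjusted p 0.0623).

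*DNAJB1* (chromosome 19) encodes HSP40, the heat-inducible J protein that hands clients to HSP70. It had TPM values of 69.9 and 60.6 in siControl and 70.9 and 75.7 TPM in siCNOT4. The groups were separated by less than the difference between the siControl replicates. The log2 fold change was 0.17 (95% interval -0.27 to 0.60, limma adjusted p 0.482), or -0.33 relative to all genes, and it turned negative under TMM scaling, quantile normalization, median centring and trend removal. Without siControl replicate 1, in the fit that called 79.6% of all genes, it was 0.27 (adjusted p 0.0262). In GENCODE 29 an exon of *DNAJB1* overlaps *TECR* on the opposite strand, and *TECR* rose by 1.10 (limma adjusted p 0.0433). The microRNA feature *MIR639* also overlaps it and is listed at 17.3 to 67.8 TPM. The library kit keeps strand, but whether the counting used it is not given in the sources used here, so reads of the shared stretch are uncertain. *HSP90AA1* has such an overlap with *WDR20* and *HSF1* with *DGAT1*, neither of which was called.

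*HSP90AA1* (chromosome 14) encodes HSP90 alpha, the isoform that stress induces, and *HSP90AB1* (chromosome 6) encodes HSP90 beta, the isoform made constitutively. *HSP90AA1* had 1361 and 1288 TPM in siControl and 2282 and 2175 TPM in siCNOT4. Both siCNOT4 values lay far above both siControl values. The ratio of means was 1.68 and the log2 fold change 0.75 (SE 0.12, 95% interval 0.47 to 1.03, limma adjusted p 0.0256), or 0.25 relative to all genes. The call was lost with TMM scaling (0.20, adjusted p 0.655), median centring (0.19, 0.739) and trend removal (0.22, 0.383), and kept with quantile normalization (1.12, 0.0221). *HSP90AB1* had 1722 and 1675 TPM in siControl and 1565 and 1538 TPM in siCNOT4. Its siCNOT4 values lay a little below, without overlap. The log2 fold change was -0.13 (95% interval -0.40 to 0.14, limma adjusted p 0.389), -0.63 relative to all genes, -0.68 with TMM scaling (adjusted p 0.170) and 0.18 with quantile normalization (0.285).

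A ratio of 2 genes within a library does not depend on a scaling factor for the library, such as that of TMM. These pairs were picked after the values of the single genes had been seen. *HSP90AA1* over *HSP90AB1* gave ratios of 0.790 and 0.769 for siControl and of 1.46 and 1.41 for siCNOT4, so the alpha isoform was below beta in both siControl libraries and above it in both siCNOT4 libraries. The ratio was 1.84-fold higher in siCNOT4. With 2 libraries against 2, p cannot go below 0.333 in an exact permutation test (two-sided), and each of the 6 ratios computed had that value (0.333 after Benjamini-Hochberg adjustment). Relative to the sum of *HSPA1A* and *HSPA1B*, the siControl libraries held 8.91 and 7.50 times as much *HSPA8* and the siCNOT4 libraries 13.5 and 12.4 times as much. For *HSPA8* and its J protein partner *DNAJB1* it was 18.9 and 17.9 against 31.2 and 27.4. Of the exchange factors, *HSPH1* over *BAG3* came to 2.49 and 2.51 in siControl and 4.59 and 4.11 in siCNOT4. In all 4 ratios the groups were farther apart than the replicates. *HSPB1* over *HSF1* was 3.50 and 5.45 against 2.58 and 2.68, with siControl replicate 2 apart from the rest. *HSPA1A* over *HSPA1B* was 1.15 and 1.25 against 1.11 and 1.12, with the siControl replicates farther apart than the nearest libraries of the 2 groups. As differences between fitted log2 fold changes, *HSP90AA1* minus *HSP90AB1* was 0.88 and ranged from 0.72 (trend removal) to 0.94 (quantile normalization), whereas *HSPH1* minus *BAG3* was 0.79 and came to 0.26 with trend removal. Under quantile normalization, *HSPA8* minus *HSPA1A* went from 0.71 to 1.34 and *HSPA8* minus *DNAJB1* from 0.67 to 1.32. With trend removal these 2 differences were 0.58 and 0.57. When 1 library was left out the first ranged from 0.56 to 0.86 and the second from 0.58 to 0.76.

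**Figure D2:**
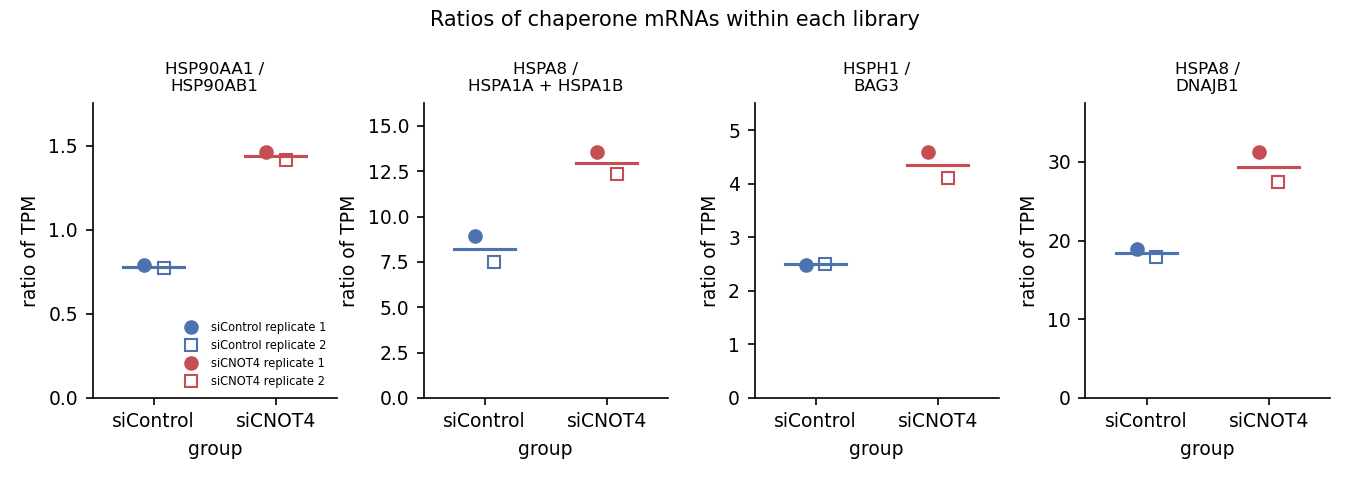
Ratio of TPM of 2 genes within each library (y axes start at 0) for siControl (blue) and siCNOT4 (red): filled circles, replicate 1; open squares, replicate 2; lines, group means. *HSP90AA1* over *HSP90AB1* lay below 1 in siControl (0.790 and 0.769) and above 1 in siCNOT4 (1.46 and 1.41).

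*HSPB1* (chromosome 7) encodes HSP27, a small heat shock protein that holds unfolded clients and binds actin. It had 156 and 217 TPM in siControl and 83.0 and 94.5 TPM in siCNOT4. Every siCNOT4 value lay below every siControl value, and siControl replicate 2 was the highest of the 4. The ratio of means was 0.476, and the log2 fold change was -1.05 (SE 0.21, 95% interval -1.55 to -0.55, limma adjusted p 0.0362), or -1.55 relative to all genes. Called under TMM scaling (-1.59, adjusted p 0.0470), quantile normalization (-1.27, 0.0266) and trend removal (-0.95, 0.0151), it missed the threshold with median centring (-1.61, 0.0601). Within each library it stood at percentiles 92.8 and 95.3 (siControl) and 83.5 and 85.2 (siCNOT4). At 1455 nt its transcript is the shortest of the 10, with a GC content of 64.3%.

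Of 11312 candidate genes outside the chaperone lists with a mean of at least 5 TPM, the 3 nearest in profile to *HSPB1*, the member with the largest absolute change, were *CKB*, *NME3* and *MDK*. Nearness was the Euclidean distance over the 4 libraries of log2(TPM + 1) less each gene's mean, which was 0.058, 0.062 and 0.076. *CKB*, the brain-type creatine kinase, had 1214 and 1622 TPM in siControl and 656 and 715 TPM in siCNOT4 (log2 fold change -1.03). *NME3* (-1.06) and *MDK*, which encodes the growth factor midkine (-1.03), were likewise highest in siControl replicate 2. With 4 libraries such likeness is a description only.

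*HSF1* (chromosome 8) encodes the transcription factor that drives the heat shock response. It had 44.8 and 39.8 TPM in siControl and 32.1 and 35.2 TPM in siCNOT4. The siCNOT4 libraries lay below the siControl libraries without overlap. The log2 fold change was -0.32 (SE 0.20, 95% interval -0.81 to 0.17, limma adjusted p 0.257), or -0.82 relative to all genes. It passed the threshold, also in the lower direction, with TMM scaling (-0.86, adjusted p 0.0444), quantile normalization (-0.76, 0.0338) and trend removal (-0.55, 0.0229), and without siControl replicate 2 (-0.40, 0.0152). Within each library it stood at percentiles 73.8 and 76.5 (siControl) and 61.0 and 63.1 (siCNOT4). The activity of HSF1 is set largely by trimerization and modification of the protein, which these data do not measure.

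**Figure D3:**
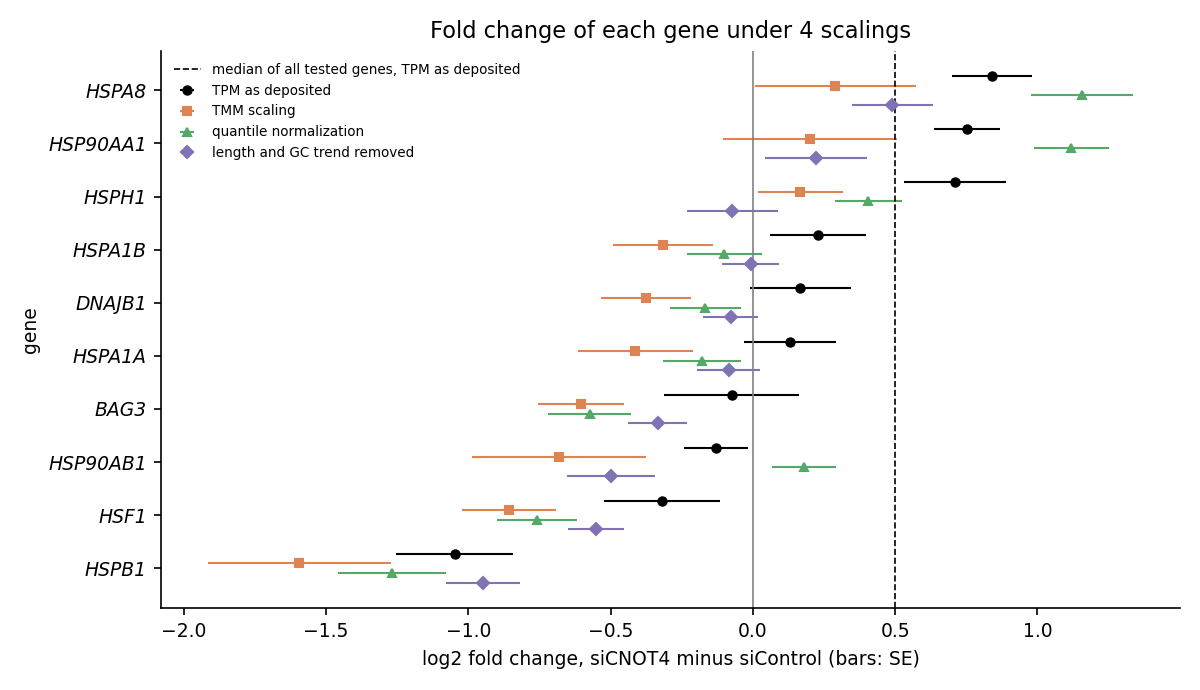
Log2 fold change (siCNOT4 minus siControl, bars SE) of each gene for TPM as deposited and after TMM scaling, quantile normalization or removal of length and GC trends; the dashed line is the median of all tested genes for TPM as deposited (0.50). *HSPB1* and *HSF1* lie below 0 in all 4, while *HSPA8* and *HSP90AA1* lie above 0 in all 4 with adjusted p values from 0.0221 to 0.655.

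The wider chaperone system was described with 9 gene lists, whose counts stand beside 11.3% higher and 1.30% lower over all tested genes, 4.43% and 4.33% with TMM scaling, and 11.8% and 11.6% with trends removed. Among the cytosolic and nuclear HSP70 and HSP110 genes, 4 of 9 tested rose and 0 fell, with a median log2 fold change of 0.71 against 0.50 for all genes. Besides *HSPA8* these were *HSPA2* (1.46, adjusted p 0.0351), an HSP70 needed in male germ cells, *HSPA4* (0.90, 0.0259), an HSP110 relative, and *HSPA14* (0.80, 0.0442), which works at the ribosome. *HSPA2* had 11.5 and 8.05 TPM in siControl and 27.1 and 29.4 TPM in siCNOT4, and with TMM scaling it was the 1 of these 9 that was called (0.94, adjusted p 0.0345), *HSPA4* being at 0.35 (0.217) and *HSPA14* at 0.26 (0.305). With trends removed, *HSPA2* was called higher (0.75, adjusted p 0.0199) and *HSPA4L* lower (-0.53, 0.0284). *HSPA6*, the HSP70 gene that is nearly silent without stress, did not reach the minimum mean of 1 TPM. Of 11 tested cytosolic J proteins 0 were called by limma, and 4 had an unadjusted p under 0.05. For 1 of those 4 a limma p of 0.0499 became 0.119 after adjustment, so p values under 0.05 were common over all genes. Counts at an unadjusted p, here and in the lists below, are therefore not read as a sign of change. The most abundant besides *DNAJB1* were *DNAJA1*, with 296 and 283 TPM against 341 and 360 TPM (0.27, adjusted p 0.159), and *DNAJC7* (0.19, 0.352). Of 7 exchange factors outside the HSP110 family (the BAG genes and *HSPBP1*) 0 were called by limma, and 3 had an unadjusted p under 0.05. *HSPH1*, also an exchange factor, is counted with the HSP70 and HSP110 genes. *BAG2* had 0.10 (limma adjusted p 0.736) and *HSPBP1* -0.01 (0.983). With trends removed *BAG2* was called lower (-0.83, adjusted p 0.0338).

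Among HSP90 and its co-chaperones, 2 of 20 rose and 1 fell, with a median of 0.28. *CHORDC1*, an HSP90 co-chaperone that heat induces, rose from 31.5 and 23.9 TPM to 59.5 and 60.3 TPM (1.10, limma adjusted p 0.0379). *SGTA*, a co-chaperone that also guides tail-anchored membrane proteins, fell from 76.1 and 74.2 TPM to 37.2 and 38.6 TPM (-0.97, adjusted p 0.0329). With TMM scaling *SGTA* was still called lower (-1.51, adjusted p 0.0298), and *CHORDC1* missed the threshold (0.56, 0.0613). With trends removed 0 of the 20 were called higher by limma and 3 lower, namely *FKBP4*, *SGTA* and *TOMM34*. Of 5 tested genes listed as small heat shock proteins by their HSPB symbols only *HSPB1* was called, so the list's median of -0.14 covers unlike members. *HSPB8*, a partner of BAG3, had 0.89 (limma adjusted p 0.0598) and *HSPB11*, listed by its symbol alone, 0.32 (0.218). With trends removed *HSPB8* was called higher (0.68, adjusted p 0.0483). Of the 5 heat shock factors and regulators 0 were called by limma (1 at an unadjusted p under 0.05), *HSF2* having 0.71 (adjusted p 0.0727) and *HSBP1*, whose protein binds HSF1 trimers, 0.25 (0.182).

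The chaperonin TRiC folds actin and tubulin, which prefoldin delivers to it. Of these 14 genes 1 rose and 2 fell, with a median of 0.12. *CCT3* fell from 855 and 780 TPM to 412 and 405 TPM (-0.997, limma adjusted p 0.0227), *PFDN2* fell by 0.94 (0.0330), and *PFDN1* rose by 0.84 (0.0422). With TMM scaling *CCT3* (-1.55, adjusted p 0.0316) and *PFDN2* (-1.49, 0.0455) were called lower and *PFDN1* was not called (0.30, 0.224). With trends removed limma called *CCT3* (-1.24, adjusted p 0.0112) and *PFDN2* (-0.95, 0.0121) lower and *PFDN1* (0.74, 0.0449) higher. The other 7 TRiC subunits were not called. In a list of other heat-inducible genes, 1 of 16 tested rose (*CHORDC1*) and 0 fell. Of the members it holds only *BAG3*, so *HSP90AA1* and *HSPB1*, which were called, are not counted in it. Its median was 0.11, which is -0.39 relative to all genes, and 12 of 16 lay below the median of all genes. With TMM, which moved the calls over all genes to 4.43% higher and 4.33% lower, 0 of the 16 were higher and 1 lower. That was *SERPINH1*, a collagen chaperone (-1.10, limma adjusted p 0.0298, against -0.55 and 0.116 for TPM as deposited). With the whole table shifted, a single lower call is not read as a result about the list. With trends removed 0 of the 16 were higher and 4 lower, namely *HSPA4L*, *HSPD1*, *SERPINH1* and *FKBP4*. Of 12 chaperones of the endoplasmic reticulum and mitochondria 1 rose, *HSPA5*, the HSP70 of the endoplasmic reticulum (0.57, adjusted p 0.0493), which with TMM scaling was at 0.02 (0.958). After TMM scaling 0 of these 12 were higher and 1 lower, the mitochondrial HSP90 *TRAP1* (-0.88, limma adjusted p 0.0489), again a single call. With trends removed 0 were higher and 5 lower, the mitochondrial *HSPA9*, *HSPD1*, *TRAP1*, *GRPEL1* and *GRPEL2*. With TMM scaling the median of the HSP70 and HSP110 list was 0.17, and those of the other 8 lists lay between -0.48 and -0.14. With trends removed the HSP70 and HSP110 list had a median of -0.0079. That was below those of the BAG and *HSPBP1* exchange factors (0.041) and the heat shock factors (0.025), so its place above the other lists was not kept. The lists share genes, and none was tested as a set.

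**Figure D4:**
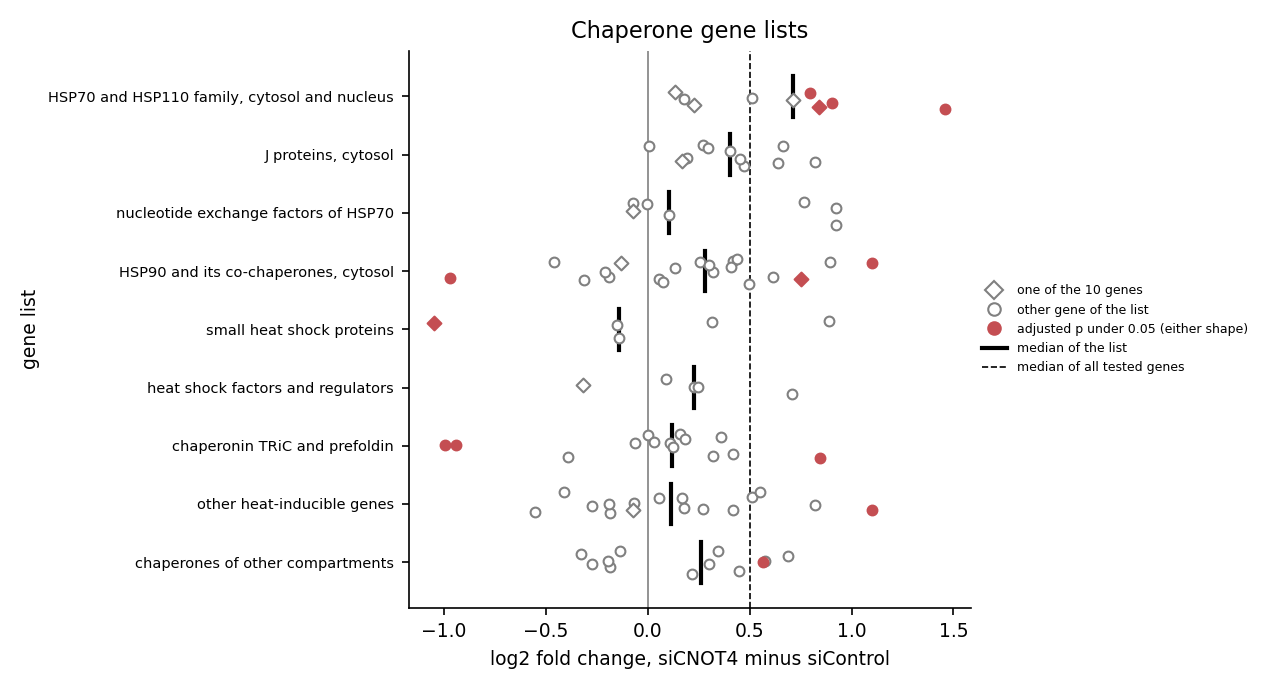
Log2 fold change (siCNOT4 minus siControl, TPM as deposited) of each tested gene in 9 chaperone lists: diamonds, the 10 members; circles, other genes; red, adjusted p under 0.05; thick bars, list medians; dashed line, median of all tested genes (0.50). The HSP70 and HSP110 list has its median (0.71) to the right of the dashed line, and the other 8 lists have theirs to its left. That order was not kept with length and GC trends removed (-0.0079 for the HSP70 and HSP110 list, 0.041 for the BAG and *HSPBP1* exchange factors).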

How the data were processed

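Poly(A) RNA was sequenced with a stranded kit from 4 libraries, per the labels' protocols. The deposited tables give TPM, scaled by the authors to 1000000 per library, per the file headers and values. The submitters' processing notes name FastQC 0.11.2, STAR 2.5.3a, featureCounts and hg19. The gene lengths, annotation and strand setting are not given in the sources used here. TPM hold no read totals, so no counting interval was computed.

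Groups came from the titles. The 14208 features averaging 1 TPM or more over the libraries were compared as log2(TPM + 1) with limma 3.58.1 (R 4.3.3, lmFit and eBayes with a trend, 2 libraries against 2), with Benjamini-Hochberg adjustment over all of them and a threshold of 0.05. With this pseudocount the fold change of low genes is understated. The prior degrees of freedom were 4.22. TMM factors were computed directly from TPM, without precision weights, in place of the packaged function that had been planned. Length and GC trends were removed by lowess of each library's deviation from the gene mean on the longest GENCODE 29 transcript (GRCh38), for the 13073 tested features (92.0%) that matched by symbol. The fit was first tested on simulated data.

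Alternatives were a pseudocount of 0.1, no minimum, a minimum of 5 TPM, the scalings named in the results, no trend, a block on the replicate number, leaving out each library, and summing *HSPA1A* and *HSPA1B*. The text names the 10 members, *CNOT4*, and from each list every other called gene (4 at most), or the 2 most abundant genes where no other was called. It also names the 3 genes nearest in profile to the most changed member. Genes overlapping a member, genes called only under another scaling, the ratio pairs and the promoters shown were chosen after values were seen. The members and lists were chosen with earlier results of these data known.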

Additional observations from a re-analysis of the deposited data

How the results depend on the processing

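Of 14208 tested genes 1792 were called. That count was 558 with a pseudocount of 0.1, 908 without a minimum, 147 with a minimum of 5 TPM, 543 with median centring, 3056 with length and GC trends removed, 756 without a trend in eBayes, and 450 to 11311 when 1 library was left out. The 3 calls among the 10 members became 1 without a minimum, 0 with a minimum of 5 TPM, with median centring or without a trend, and 0 to 6 when 1 library was left out. At the minimum of 5 TPM the adjusted p values were 0.0521 (*HSPA8*), 0.0511 (*HSP90AA1*) and 0.0561 (*HSPB1*), with fewer genes tested. Without a trend they were 0.0637, 0.0652 and 0.0596, *HSPB1* also missed the threshold with a pseudocount of 0.1 (0.0539), and without a minimum *HSPA8* (0.0536) and *HSPB1* (0.0651) did. In the 3 limma fits other than leave-one-out with 0 members called, 3 or 4 had an unadjusted p under 0.05. The share of all genes under that p was not computed. The median of the members relative to all genes, -0.35, was -0.090 with trends removed, -0.15 under quantile normalization, -0.20 without a minimum, and -0.51 to -0.19 when 1 library was left out (without siControl replicate 1 and replicate 2). Directions reversed for members that were not called: *HSPA1A* was -0.41, -0.18, -0.43 and -0.086 under TMM, quantile, median centring and trend removal, *HSPA1B* -0.31, -0.10, -0.33 and -0.0079, and *DNAJB1* -0.38, -0.17, -0.39 and -0.078. *HSP90AB1* was 0.18 under quantile normalization, *HSPH1* -0.072 with trends removed, and *BAG3* ranged from -0.23 to 0.075 when 1 library was left out. The cause was not tested. With the replicate number as a block (replicate block), 3655 genes were called and *HSPH1* passed (adjusted p 0.0311). The titles share numbers only, and across genes the replicate differences of the 2 groups correlated at 0.171. The depth is unknown, so no limit from counting can be given.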
